A study of Mus musculus with 6 samples.

Results

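The IL-6 family receptor chains and the STAT3 signalling components below them were examined in the gastrocnemius muscle of mice bearing colon-26 (C26) tumours, a mouse colon adenocarcinoma line used to produce cancer cachexia. The set was chosen by gene symbol and held 10 genes, all found among the 13363 genes listed in the expression table. These were the receptor chains Il6ra, Il6st, Osmr, Lifr and Cntfr, the kinases Jak1 and Jak2, the transcription factor Stat3, and the inhibitors Socs3 and Pias4. RNA sequencing had been carried out on gastrocnemius from 3 C26 mice and 3 Control mice, and expression was given as FPKM, that is, fragment numbers set relative to transcript length and to library size. All animals were male BALB/C mice bought at 6 weeks of age and kept for 1 week before use. The C26 mice received 500000 C26 cells under the skin of the right flank, whereas the Control mice were not inoculated, and body weights were followed for 15 days. No transgene, knockout or drug was part of either group, and the tumour itself was not sequenced.

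Cytokines of the IL-6 family act through gp130, encoded by Il6st. IL-6 first binds the IL-6 receptor alpha chain, which cannot signal by itself, and the pair then recruits gp130. Oncostatin M, LIF and CNTF use gp130 together with OSMR, LIFR or the CNTF receptor alpha chain. Janus kinases bound to gp130 phosphorylate STAT3, which moves to the nucleus, and Socs3 is a STAT3 target whose product binds gp130 and the kinases and shuts the signal down. In skeletal muscle this pathway is known from regeneration and from wasting in tumour-bearing animals. Transcript levels do not measure receptor protein or STAT3 phosphorylation.

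Of the 10 genes, 6 passed the test between C26 and Control muscle (limma, Benjamini-Hochberg adjusted p under 0.05), against 33.8% of all genes tested. The 5 that rose were Il6ra, Pias4, Il6st, Osmr and Stat3, where 19.4% of all genes were called higher. Cntfr was the 1 gene that fell, where 14.5% of all genes were called lower. At the stricter definition of a differentially expressed gene, which also asks for a fold change above 4, Il6ra was the 1 gene called higher (1.75% of all genes) and Cntfr the 1 gene called lower (1.73% of all genes), 2 in either direction (3.48%). On the scaled log2 values the ranges of the 2 groups did not overlap for the same 6 genes, 5 higher and 1 lower in C26, and this was so for 53.5% of all genes, 27.0% higher and 26.5% lower. The share that passed at a fold change above 4 was above the background, but the genes were chosen with earlier results of these data known. That difference therefore carries no test. Separated groups were common across the whole table. Fold changes here are differences on the log2(TPM + 1) scale, where TPM is FPKM rescaled to the same total in each muscle, and this scale understates the change of genes with low levels.

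**Figure D1:**
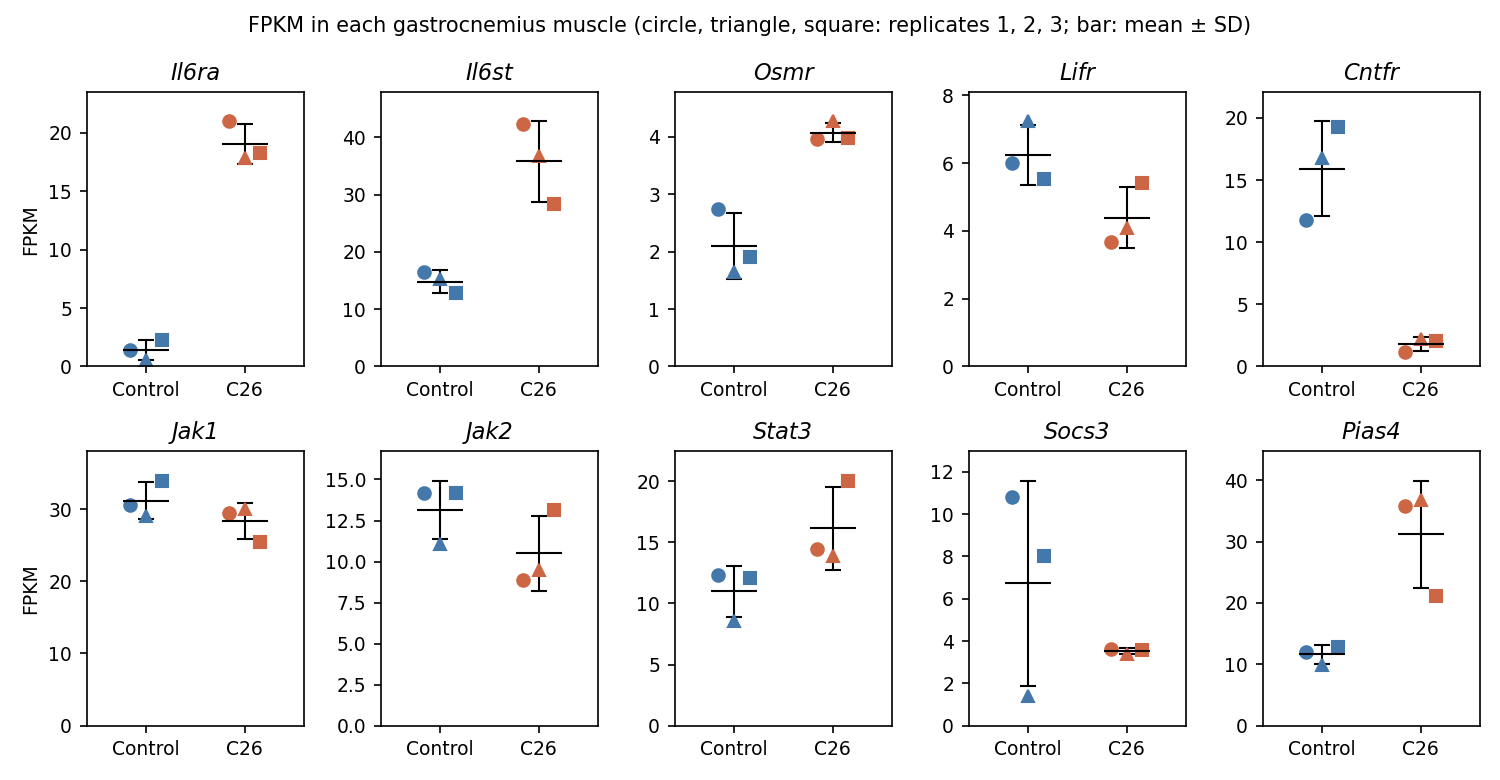
FPKM (linear axis) of the 10 genes in each of the 3 C26 and 3 Control muscles. Each muscle is 1 point, and bars give the mean ± SD of each group. The points of the groups lie apart for Il6ra, Il6st, Osmr, Stat3 and Pias4, higher in C26, and for Cntfr, higher in Control, those of Lifr are nearly touching (5.42 and 5.52 FPKM), and the Control points of Socs3 spread from 1.38 to 10.8 FPKM around the C26 points.

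The muscle samples carried the markers of their tissue, since all 12 skeletal muscle fibre markers were listed, with a summed level of 76572 to 114609 FPKM in C26 and 171408 to 189255 FPKM in Control. Of these 12 genes, 4 fell and none rose. Over all genes 14.5% were called lower and 19.4% higher, and these shares stand beside each count of markers in this paragraph. Adipocyte markers, 7 of 7 listed, summed to 251 to 386 FPKM in C26 and 538 to 4130 FPKM in Control, and 6 of them fell. Fibroblast markers, 10 of 10 listed, summed to 302 to 484 FPKM in C26 and 761 to 1147 FPKM in Control, and 6 fell. Control replicate 3 stood apart in lymphocyte markers, of which 3 of 10 were listed, with a sum of 1288 FPKM against 35.4 and 53.8 FPKM in the other Control muscles and 3.86 to 16.4 FPKM in C26. Of the 1288 FPKM in Control replicate 3, 1143 came from Cd74 alone. The T cell markers Cd3d, Cd3e and Cd3g were not listed. Endothelial, satellite cell and erythroid markers were also summed. Endothelial markers (10 of 10 listed) gave 84.9 to 91.6 FPKM in C26 and 97.4 to 153 FPKM in Control, satellite cell markers (6 of 6) gave 8.98 to 15.1 and 12.5 to 14.1 FPKM, and erythroid markers (4 of 5) gave 615 to 1188 and 329 to 508 FPKM. All 4 listed erythroid markers rose, while 2 endothelial markers and 1 satellite cell marker fell and none of these 2 lists rose. The part of these marker differences in the results below was not tested. In whole muscle, fewer cells of a type and less RNA per cell cannot be told apart.

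Il6ra, the ligand-binding chain for IL-6, showed the largest increase of the 10 genes. Its level was 21.0, 17.9 and 18.3 FPKM in the C26 muscles and 1.41, 0.53 and 2.27 FPKM in the Control muscles. Every C26 muscle was therefore several fold above every Control muscle. The means were 19.1 ± 1.69 and 1.40 ± 0.870 FPKM (SD, n = 3 each), and the scaled levels differed by 11.9-fold (limma, adjusted p = 0.00178). The 95% confidence interval of the log2 fold change was 2.86 to 4.29, and only 34 of all genes tested had a larger increase. Without any single muscle the log2 fold change lay between 3.27 and 3.85 and stayed past the threshold in all 6 such fits. The Control muscles varied more for Il6ra than for most genes, with a log2 range of 1.17 against a median range of 0.39 over all genes. Leukocytes express Il6ra, and the macrophage and neutrophil markers, 11 of 13 listed, summed to 124, 320 and 60.1 FPKM in C26 and 108, 58.8 and 245 FPKM in Control. The ranges of these sums overlapped between the groups, and 247 of the 320 FPKM in C26 replicate 2 came from Cd68 alone. The defining neutrophil genes Ly6g and Retnlg were not listed. Of the 11 markers 2 rose, where 19.4% of all genes were called higher. These were S100a8 (log2 fold change 1.92, limma, adjusted p = 0.00858) and S100a9 (log2 fold change 1.86, limma, adjusted p = 0.00690). Both calls held in all 6 fits without 1 muscle. The part of leukocytes in the Il6ra increase was not tested.

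Il6st encodes gp130, the signal-transducing chain shared by the family. Its level was 42.3, 36.7 and 28.4 FPKM in C26 and 16.5, 15.2 and 12.7 FPKM in Control. The lowest C26 muscle was above the highest Control muscle. The scaled levels differed by 2.71-fold, with a 95% confidence interval of 0.97 to 1.91 for the log2 fold change (limma, adjusted p = 0.00520). This call held in all 6 fits without 1 muscle, where the log2 fold change ranged from 1.29 to 1.64.

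Osmr, which pairs with gp130 to bind oncostatin M, was expressed at a lower level than gp130 in both groups. It measured 3.97, 4.27 and 3.98 FPKM in C26 and 2.75, 1.65 and 1.91 FPKM in Control. The C26 muscles were close to each other and all lay above the Control muscles. The increase was 1.98-fold (limma, adjusted p = 0.00834), and it too passed in all 6 fits without 1 muscle, at a log2 fold change of 0.91 to 1.13.

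Lifr, the partner of gp130 for LIF and a component of the CNTF receptor, did not pass the test. Its level was 3.68, 4.08 and 5.42 FPKM in C26 and 6, 7.23 and 5.52 FPKM in Control. The FPKM of the groups were just apart, but on the scaled log2 values the groups overlapped. The log2 fold change was -0.27 with a 95% confidence interval of -0.81 to 0.27 (limma, adjusted p = 0.378).

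Cntfr encodes the CNTF receptor alpha chain, a membrane-anchored protein without a signalling domain that is found in muscle and neurons. It fell from 11.8, 16.7 and 19.2 FPKM in the Control muscles to 1.19, 2.24 and 2.03 FPKM in the C26 muscles. No C26 muscle came near the lowest Control muscle. The means were 1.82 ± 0.556 FPKM in C26 and 15.9 ± 3.81 FPKM in Control (SD, n = 3 each), and the scaled level was 6.0-fold lower in C26 (limma, adjusted p = 0.00272). The log2 fold change was -2.58, with a 95% confidence interval of -3.22 to -1.95, and lay between -2.80 and -2.37 without any single muscle. Among all genes, 121 had a larger decrease.

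**Figure D2:**
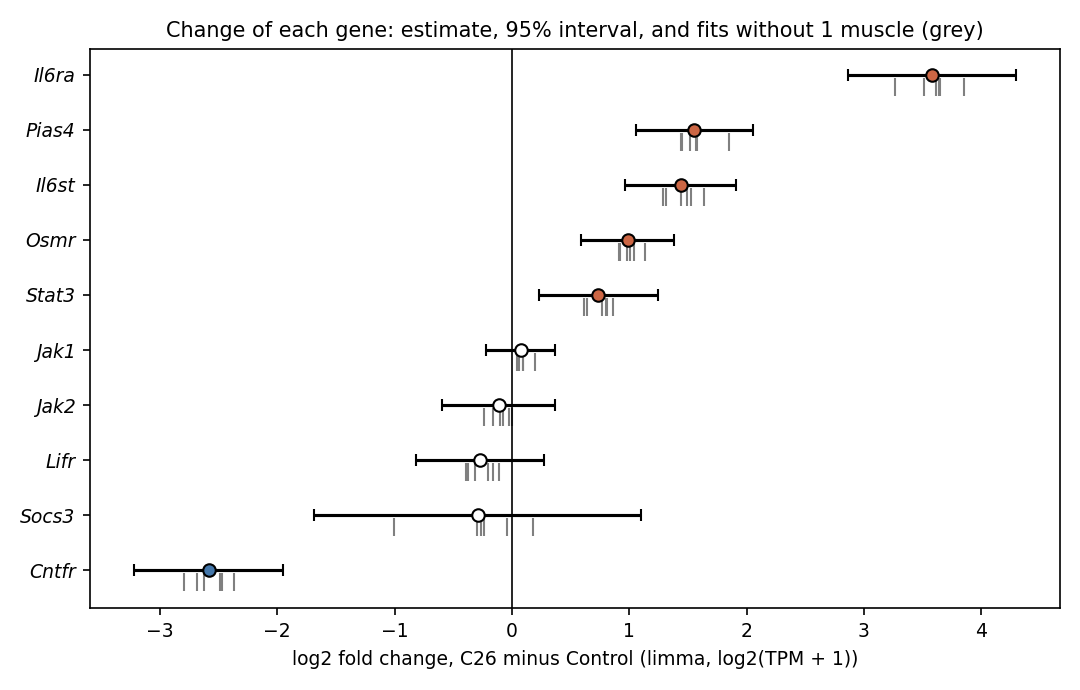
Log2 fold change of each of the 10 genes, C26 minus Control, on the log2(TPM + 1) scale, with the limma 95% confidence interval as bars. The intervals of Il6ra, Il6st, Osmr, Stat3 and Pias4 lie above 0 and that of Cntfr lies below 0, while those of Lifr, Jak1, Jak2 and Socs3 cross 0.

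The 4 chains that combine with gp130 were set against each other within each muscle, since such a share does not depend on how the libraries are scaled. FPKM are per transcript length, so levels of different genes can be placed side by side, although the effective length of each gene was estimated by the quantification. The summed FPKM of Il6ra, Osmr, Lifr and Cntfr was 29.8, 28.5 and 29.7 in C26 and 21.9, 26.2 and 28.9 in Control, so the sums were of the same order in all 6 muscles. Il6ra made up 61.5% to 70.4% of this sum in C26 and 2.03% to 7.84% in Control. Cntfr made up 3.99% to 7.87% in C26 and 53.6% to 66.5% in Control. The chain with the highest share was thus Cntfr in each Control muscle and Il6ra in each C26 muscle. Osmr held 13.3% to 14.99% in C26 and 6.31% to 12.6% in Control, and Lifr held 12.3% to 18.2% and 19.1% to 27.6%.

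**Figure D3:**
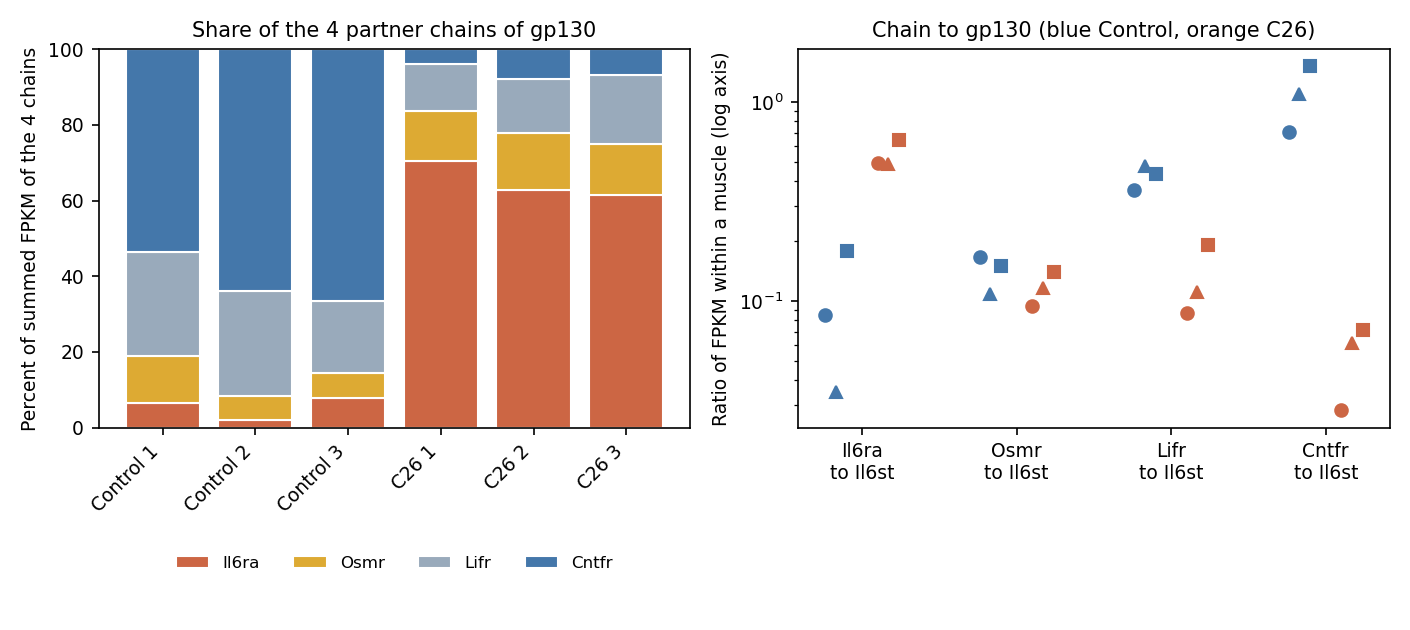
Left, the share in percent of Il6ra, Osmr, Lifr and Cntfr in their summed FPKM in each muscle as stacked bars starting at 0. Right, the ratio of each chain to Il6st (log axis) in each muscle, with marker shapes for replicates 1, 2 and 3. Cntfr takes the largest share in each Control muscle and Il6ra in each C26 muscle.

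The ratio of each chain to gp130 gave the same picture. The Il6ra to Il6st ratio was 0.496, 0.488 and 0.644 in C26 and 0.0852, 0.0349 and 0.178 in Control. The Cntfr to Il6st ratio was 0.0281, 0.0611 and 0.0715 in C26 and 0.710, 1.10 and 1.51 in Control. Both ratios were fully separated between the groups, in opposite directions. The Lifr to Il6st ratio was also separated, at 0.0870, 0.111 and 0.191 in C26 and 0.363, 0.476 and 0.434 in Control. The Osmr to Il6st ratio overlapped, at 0.0939, 0.117 and 0.140 in C26 and 0.166, 0.109 and 0.150 in Control, so Osmr and gp130 rose by amounts that could not be told apart here. With 3 muscles against 3, an exact permutation test cannot go below p = 0.1, which is the value that the 3 separated ratios reached (two-sided, adjusted p = 0.2 over the 6 ratios computed). For Osmr to Il6st it gave p = 0.4 (exact permutation test, adjusted p = 0.48).

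Jak1 and Jak2 encode the tyrosine kinases bound to gp130. Jak1 measured 29.44, 30.02 and 25.44 FPKM in C26 and 30.53, 28.99 and 33.95 FPKM in Control. The groups overlapped, and the log2 fold change was 0.07 with a 95% confidence interval of -0.22 to 0.37 (limma, adjusted p = 0.654), and its sign turned under 3 other scalings. Jak2 measured 8.87, 9.50 and 13.1 FPKM in C26 and 14.2, 11.1 and 14.2 FPKM in Control. Its groups also overlapped, at a log2 fold change of -0.11 and an interval of -0.60 to 0.37 (limma, adjusted p = 0.679). The Jak2 to Jak1 ratio was 0.301, 0.316 and 0.516 in C26 and 0.464, 0.383 and 0.418 in Control, which overlapped (exact permutation test, p = 0.5, adjusted p = 0.5).

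Stat3, the transcription factor on which the pathway converges, measured 14.46, 13.91 and 20.04 FPKM in C26 and 12.3, 8.56 and 12.1 FPKM in Control. All C26 muscles were above all Control muscles, but C26 replicate 2 and Control replicate 1 were close. The increase was 1.67-fold, with a log2 fold change of 0.74 and a 95% confidence interval of 0.23 to 1.24 (limma, adjusted p = 0.0383). This call was near the threshold. It was lost on leaving out any muscle but C26 replicate 3, where the adjusted p ranged from 0.0323 to 0.102 at a log2 fold change of 0.62 to 0.86, and it was kept under 3 of 9 other settings, in which the adjusted p ranged from 0.0259 to 0.150. The direction was the same throughout, but the call was less stable than those of Il6ra, Il6st, Osmr and Cntfr, which passed in every such fit.

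Socs3, the feedback inhibitor of gp130 signalling, lies on chromosome 11 from 117966079 to 117970047 on the minus strand (GRCm38). Its RefSeq promoter window held the only match among the windows of these genes to the STAT motif TTCNNNGAA, so the stretch around it is shown. The stretch lies within the GENCODE span just given, downstream of that annotation's 5′ end, so it counts as promoter only for the RefSeq start used. The window searched ran from 250 bases before to 50 bases after the start of each RefSeq gene. The sequence, taken from RefSeq on GRCm38.p6, chr11:117969476-117969556, minus strand, and written 5′ to 3′, overlaps no GENCODE exon, and the capitals mark the match, which begins 154 bases before that start.
Socs3: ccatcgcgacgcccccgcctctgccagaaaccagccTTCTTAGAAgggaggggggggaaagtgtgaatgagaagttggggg
The motif reads the same on both strands. It was present in 8.30% of all 32851 promoter windows and in 1 of the 15 windows of the 9 genes that had one. The FoxO motif GTAAACA and the C/EBP motif TTGCGCAA, searched on both strands, were in 3.65% and 0.183% of all windows and in 0 of the 15. A match is a run of letters and not a measured binding site.

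The level of Socs3 was 3.63, 3.39 and 3.60 FPKM in C26 and 10.8, 1.38 and 8.04 FPKM in Control. The C26 muscles were nearly equal to each other, and they lay between Control replicate 2 and the other Control muscles. The log2 fold change was -0.29 with an interval of -1.69 to 1.10 (limma, adjusted p = 0.716). The log2 range over the Control muscles was 2.36, which was wider than for 97.6% of all genes. Without Control replicate 2 the log2 fold change was -1.01 (limma, adjusted p = 0.0246), and without Control replicate 1 it was 0.18 (limma, adjusted p = 0.838). The direction of Socs3 therefore depended on which Control muscles were used. The Socs3 to Stat3 ratio was 0.251, 0.244 and 0.180 in C26 and 0.877, 0.161 and 0.664 in Control, with overlap (exact permutation test, p = 0.4, adjusted p = 0.48).

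Pias4, a SUMO ligase that represses STAT-dependent transcription, measured 35.7, 36.7 and 21.1 FPKM in C26 and 12.1, 9.92 and 12.8 FPKM in Control. The C26 muscles were all above the Control muscles, with C26 replicate 3 the lowest of them. The rise was 2.94-fold, with a 95% confidence interval of 1.06 to 2.05 for the log2 fold change (limma, adjusted p = 0.00511), and the call held in all 6 fits without 1 muscle. Among the 5 genes that rose, only Il6ra had a larger increase.

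Ranked by mean FPKM within C26 muscle, the order was Il6st, Pias4, Jak1, Il6ra, Stat3, Jak2, Lifr, Osmr, Socs3 and Cntfr. The ranges of Il6st, Pias4 and Jak1 overlapped between neighbours, as did those of Il6ra and Stat3 and of Lifr and Osmr, whereas the other neighbours were apart. In Control muscle the order was Jak1, Cntfr, Il6st, Jak2, Pias4, Stat3, Socs3, Lifr, Osmr and Il6ra. Only Jak1 at the top was clear of its neighbour, and Lifr was clear of Osmr, since all other neighbours overlapped. Il6ra moved from the last place in Control to the fourth in C26, and Cntfr from the second place to the last.

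The other genes of the pathway were taken from lists of ligands, receptors, kinases, inhibitors, adaptors, STAT3-induced genes and receptor processing. These lists held 112 genes, of which 91 were listed, and 22 were called higher, 12 lower and 57 not called, with a median log2 fold change of 0.06 against -0.05 over all genes. These counts stand against 19.4% called higher and 14.5% called lower over all genes. They fell to 14 higher and 7 lower without Control replicate 1 and to 16 higher and 5 lower without C26 replicate 1. The counts over all 13363 genes fell as well, from 2586 higher and 1932 lower. They were 1151 higher and 727 lower without Control replicate 1, and 1125 and 669 without C26 replicate 1. Of the ligands 4 of 12 were listed and none passed in either direction. The genes of IL-6, IL-11, oncostatin M and LIF were not listed, so their level in muscle is not given here. Ctf1 (cardiotrophin-1) measured 2.94 to 6.23 FPKM in C26 and 6.66 to 10.9 FPKM in Control. Of the other receptors of the family 6 of 7 were listed and none passed. The IL-11 receptor gene Il11ra1 was the most abundant, at 22.6 to 28.6 FPKM in C26 and 23.0 to 24.4 FPKM in Control. Among the receptor chains of the family, calls were thus made for Il6ra, Il6st, Osmr and Cntfr and for no other chain tested.

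Of the other Janus kinases and STATs, 7 of 8 were listed, 3 fell and none rose, where 14.5% of all genes were lower and 19.4% higher. Stat2, which acts in type I interferon signalling, fell and measured 1.06, 0.83 and 0.66 FPKM in C26 and 13.9, 3.15 and 4.61 FPKM in Control (log2 fold change -2.02, limma, adjusted p = 0.0184). Tyk2, a kinase of the interferon and IL-12 receptors, had a log2 fold change of -0.89 (limma, adjusted p = 0.0223). The calls for Stat2 and Tyk2 were lost without C26 replicate 1 (adjusted p = 0.0588 and 0.0857) and without C26 replicate 2 (adjusted p = 0.0596 and 0.0560), and that for Tyk2 also without Control replicate 1 (adjusted p = 0.0691). Stat5b, which acts below the growth hormone receptor, was abundant and measured 47.0 to 52.5 FPKM in C26 and 38.1 to 46.5 FPKM in Control, without passing. Among other receptors that use these kinases, 14 of 18 were listed and 4 fell, namely Ifnar2, Ifngr2, Il10rb and Csf2ra, and none rose, against the same shares of all genes. Ifnar2, a chain of the type I interferon receptor, fell by 1.14 on the log2 scale (limma, adjusted p = 0.00837). It held in every fit without 1 muscle. The call for Il10rb was lost without C26 replicate 1 (adjusted p = 0.0519), that for Ifngr2 without C26 replicate 1, Control replicate 1 or Control replicate 2 (adjusted p = 0.0690, 0.0658 and 0.0585), and that for Csf2ra without any muscle but Control replicate 2 (adjusted p up to 0.127).

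Of the 7 SOCS-family genes beside Socs3, all were listed, 1 rose and 1 fell. Socs1, which restrains interferon and JAK signalling, measured 0.18, 0.21 and 0.12 FPKM in C26 and 8.90, 0.96 and 11.4 FPKM in Control. It fell by 2.74 on the log2 scale (limma, adjusted p = 0.0258), but this call was lost on leaving out any muscle except Control replicate 2, at an adjusted p of up to 0.0898. Socs6 rose with a log2 fold change of 0.96 (limma, adjusted p = 0.0137), which was lost without C26 replicate 1 (adjusted p = 0.0539) or Control replicate 1 (adjusted p = 0.0532). Of the other PIAS proteins and phosphatases, 8 of 8 were listed and 2 rose. Ptpn2, a phosphatase that removes phosphate from STATs and JAK1, measured 18.4 ± 2.90 FPKM in C26 and 9.70 ± 1.93 FPKM in Control (SD, n = 3 each, log2 fold change 1.10, limma, adjusted p = 0.00760). Ptpn11, the phosphatase SHP2 that binds the same gp130 tyrosine as Socs3, measured 27.9 ± 1.73 and 15.5 ± 2.39 FPKM (log2 fold change 1.04, limma, adjusted p = 0.0121), and its adjusted p was 0.0523 without Control replicate 1. Pias2 did not pass and measured 9.89 to 11.3 FPKM in C26 and 9.80 to 11.1 FPKM in Control. Over both lists 3 of 15 genes were called higher and 1 of 15 lower, beside 19.4% and 14.5% of all genes, and the call for Ptpn2 was the only 1 of these to hold without any single muscle.

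The list of genes described as induced through STAT3 held 30 genes, of which 23 were listed. Of these, 11 were called higher and 2 lower, beside 19.4% and 14.5% of all genes, with a median log2 fold change of 0.92 against -0.05 over all genes. The list was drawn up from general knowledge, but with earlier results of these data known, so its excess over all genes carries no test. Many of its genes also answer to glucocorticoids, NF-kB or C/EBP factors. Cebpd, a transcription factor of the acute-phase response, measured 230, 184 and 171 FPKM in C26 and 10.7, 6.56 and 14.8 FPKM in Control, a log2 fold change of 4.38 (limma, adjusted p = 0.000823). Lcn2, an iron-sequestering acute-phase protein, rose by a log2 fold change of 3.80 (limma, adjusted p = 0.00520), and its C26 muscles varied widely at 5.59, 25.7 and 13.4 FPKM against 0.31, 0.23 and 0.93 FPKM in Control. The immediate-early gene Fos measured 44.3, 19.3 and 12 FPKM in C26 and 1.61, 2.21 and 1.55 FPKM in Control (log2 fold change 3.42, limma, adjusted p = 0.00471). The groups were fully apart for each of these genes. Saa1, an acute-phase protein, measured 3.30, 7.87 and 1.11 FPKM in C26 and 0.11 to 0.23 FPKM in Control (limma, adjusted p = 0.0156), a call lost without C26 replicate 1 (adjusted p = 0.0595) or Control replicate 1 (adjusted p = 0.0554). The other genes called higher were Cebpb, Junb, Serpina3n, Lrg1, Mcl1, Bcl2l1 and Pim3. Ccnd1, which encodes cyclin D1, and the repressor Bcl6 were called lower, at log2 fold changes of -1.22 and -1.43 (limma). Vegfa and C3 were the most abundant that did not pass. Hp, which encodes haptoglobin and was singled out after its values were seen, measured 0.94, 5.39 and 0.43 FPKM in C26 and 29.4, 24.6 and 3.95 FPKM in Control, and did not pass (limma, adjusted p = 0.0659). Socs3, itself a STAT3 target, did not pass, as given above.

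**Figure D4:**
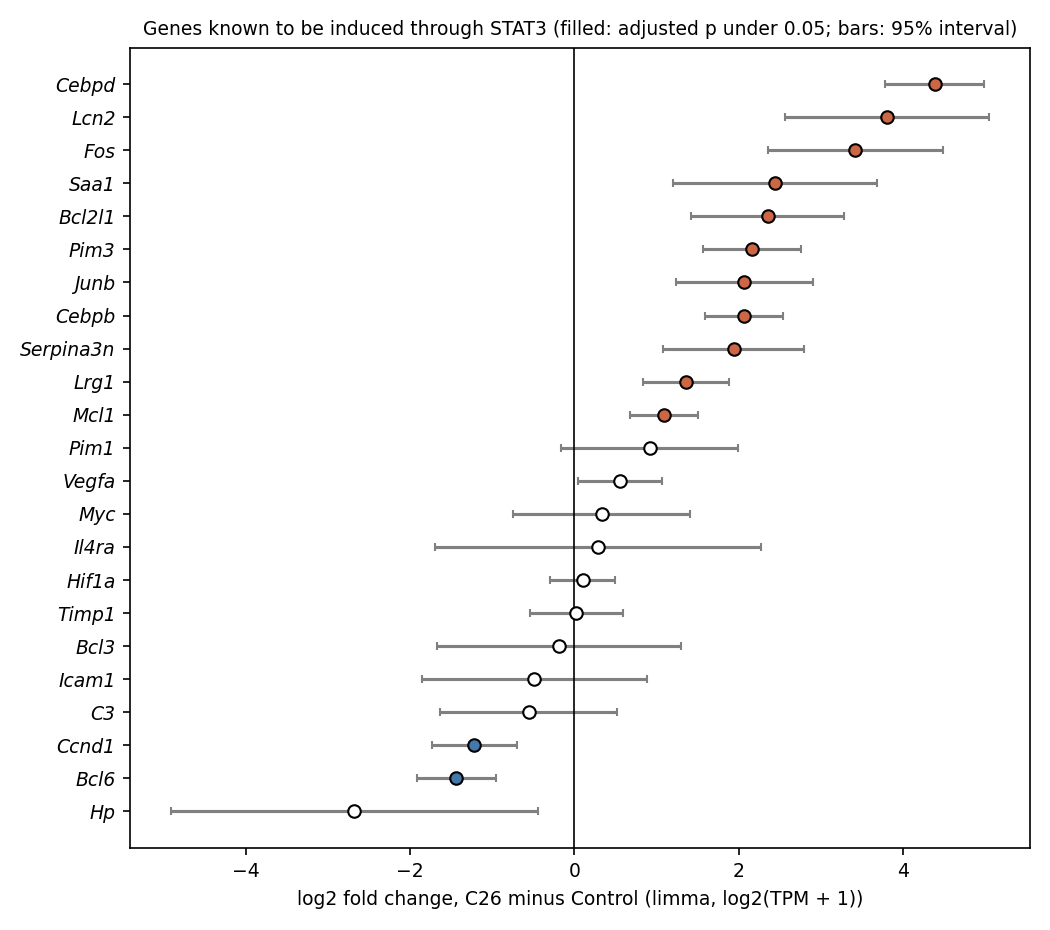
Log2 fold change, C26 minus Control on the log2(TPM + 1) scale, of the 23 listed genes described as induced through STAT3, with limma 95% confidence intervals as bars. Of the 23 points, 17 lie right of 0, with Cebpd, Lcn2 and Fos farthest, and 6 lie left of 0, of which Hp lies farthest without passing the test and Bcl6 and Ccnd1 passed it.

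Of the 13 adaptor genes that link gp130 to the MAP kinase and PI3 kinase branches, all were listed, 4 rose and 2 fell, beside 19.4% and 14.5% of all genes, so the share that fell was about that of the whole table. Pik3ca, the catalytic subunit of PI3 kinase, rose (log2 fold change 0.81, limma, adjusted p = 0.00894) and Hras, which carries the signal to the MAP kinases, fell by 1.04 on the log2 scale (limma, adjusted p = 0.00640). Both calls held without any single muscle. Pik3r1, the regulatory subunit of PI3 kinase, had a larger increase (log2 fold change 1.01, limma, adjusted p = 0.0204), but its call was lost without C26 replicate 2 (adjusted p = 0.0519) or Control replicate 1 (adjusted p = 0.0771). The adaptor Gab2 rose as well (log2 fold change 0.78, limma, adjusted p = 0.0181), and was lost without C26 replicate 1, C26 replicate 2 or Control replicate 1 (adjusted p = 0.0643, 0.0632 and 0.0507). Of 9 genes for shedding and transport of these receptors, all were listed, 4 rose and none fell, where 19.4% of all genes were higher. Hgs, which sorts ubiquitinated receptors to the lysosome, measured 73.4, 89.1 and 34.9 FPKM in C26 and 10.6, 10.3 and 11.8 FPKM in Control (log2 fold change 2.64, limma, adjusted p = 0.00377). Rhbdf2, a partner of the sheddase ADAM17, measured 19.0, 14.2 and 17.7 FPKM in C26 and 5.78, 5.08 and 7.58 FPKM in Control (log2 fold change 1.59, limma, adjusted p = 0.00355). Both calls held without any single muscle. The other 2 that rose were less stable. Erbin (log2 fold change 1.22, limma, adjusted p = 0.0187) passed only without C26 replicate 3 or Control replicate 3 of the 6 fits without 1 muscle, and was lost under 3 of 9 other settings, at an adjusted p of up to 0.0690 with the ordinary linear model. Stam, which works with Hgs in sorting receptors (log2 fold change 0.60, limma, adjusted p = 0.0296), passed only without C26 replicate 3, and was lost under 4 of 9 other settings, at an adjusted p of up to 0.127 with scaling that left out the 20 most abundant genes. The proteases themselves did not pass. Adam10 measured 3.53 to 5 FPKM in C26 and 3.66 to 6.39 FPKM in Control, and Adam17 1.88 to 2.56 and 2.74 to 4.16 FPKM.

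The genes whose scaled log2 profile over the 6 muscles came closest to those of Il6ra, Stat3 and Socs3 were found by the root mean square distance between profiles centred on their means. The closest to Il6ra were Sik1, a salt-inducible kinase gene (distance 0.36 log2 units), Cebpd (0.42) and Arl4d, a small GTPase gene (0.44). Sik1 measured 39.3, 36.2 and 22.8 FPKM in C26 and 2.40, 2.06 and 2.87 FPKM in Control. The closest to Stat3 were Oacyl, Zfp212 and Gprc5a, at 0.10 to 0.11 log2 units. Of these, Zfp212 measured 6.71, 5.70 and 7.43 FPKM in C26 and 4.86, 3.57 and 5.10 FPKM in Control. Oacyl measured only 0.31 to 0.77 FPKM in C26 and 0.05 to 0.08 FPKM in Control. Gprc5a was also low, at 0.54 to 0.97 and 0.18 to 0.29 FPKM. The log2(TPM + 1) scale understates changes at such levels, so the closeness of Oacyl and Gprc5a to Stat3 holds on that scale only. The closest to Socs3 were Eif4ebp3 (0.23), Ms4a6c (0.33) and Cyp26b1 (0.40), each with its lowest Control level in replicate 2. Ms4a6c, for example, measured 4.19, 1.02 and 4.28 FPKM in the Control muscles and 1.18 to 1.64 FPKM in C26. The 6 muscles share the same 2 groups, so these distances are a description and carry no test.

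The genes lie at separate loci of the GRCm38 assembly, with the exception of Osmr and Lifr, which are neighbours on chromosome 15 (6813577 to 6874969, minus strand, and 7090614 to 7197489, plus strand). Il6ra spans 89864059 to 89913196 on the minus strand of chromosome 3, Il6st 112464070 to 112510086 on the plus strand of chromosome 13, and Cntfr 41657498 to 41697089 on the minus strand of chromosome 4. Stat3 lies on chromosome 11 from 100885098 to 100939540 on the minus strand and shares 72 of its 9527 exonic bases with Stat5a on the other strand. Stat5a measured 2.65 to 4.76 FPKM in C26 and 3.59 to 4.84 FPKM in Control, below Stat3 in every muscle. Il6ra shares 242 of 8642 exonic bases with the antisense gene Gm42809, which was not listed. Whether reads were assigned by strand is not given in the sources used here.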

How the data were processed

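The authors quantified gastrocnemius RNA-seq reads (single ends of 50 bases) and deposited FPKM per Entrez gene for 3 C26 and 3 Control muscles, to 2 decimals. The submitters' notes name HISAT2 2.0.4, Bowtie2 2.2.5, RSEM 1.2.12 and the build mm9, while the methods name GRCm38. The labels give the tissue as gastrocnemius, but their extraction text also refers to a human cell line. Read totals are not given, so depth is unknown and no counting intervals were set. The FPKM summed to 531061 to 585169 in C26 and 626992 to 688300 in Control. Every listed gene was above 0 in every sample, and the rule that left out the other genes is not stated.

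FPKM were rescaled to TPM (sum 1000000 per sample), scaled by unweighted TMM (log ratios trimmed by 30%, mean levels by 5%), and set on log2(TPM + 1). limma 3.58.1 (R 4.3.3, moderated test, Benjamini-Hochberg over 13363 genes) was fitted to C26 against Control on all genes, after it had been tested on simulated data. Calls are adjusted p under 0.05. The limma p-values rest on the spread between these 3 muscles per group, moderated toward the spread over all genes. The titles number the muscles as replicates. Ratios within a muscle were compared by exact two-sided permutation tests. Symbols were found for 13327 Entrez ids and not for 36. The genes and lists were chosen with earlier results of these data known. Of each pathway list, the text names up to 4 genes with the largest log2 fold changes among those that passed and up to the 2 most abundant that did not, and others only for the context of a count. Some list genes that this rule takes in are not reported here. Of each marker list it gives the sums. Sik1, Oacyl, Eif4ebp3 and the others named with them were the 3 nearest profiles to Il6ra, Stat3 and Socs3. Loci are from GENCODE and promoter windows from RefSeq, both on GRCm38, where Pias4 had no window. The other settings tried were a pseudocount of 0.1, a minimum mean TPM of 1, quantile normalization, TPM with no TMM step, the deposited FPKM themselves, scaling without the 20 most abundant genes, a replicate block, an intensity trend, an ordinary linear model, and leaving out each muscle.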

Additional observations from a re-analysis of the deposited data

How the results depend on the processing

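Il6ra, Il6st, Osmr, Cntfr and Pias4 kept their direction and passed under all 9 alternatives and all 6 fits without 1 muscle. Of the 23 named list genes called, 12 passed with the same sign under every alternative and 10 in every fit without 1 muscle. The Jak1 log2 fold change was -0.13 with FPKM as deposited, -0.32 with quantile normalization and -0.22 with scaling that left out the 20 most abundant genes. That last scaling moved the median over all genes from -0.05 to -0.23 (log2). Genes called were 2586 higher and 1932 lower, of which 57.2% were higher, and this share was 40.1% with FPKM as deposited (1678 higher) and 32.5% without the 20 most abundant genes (1544 higher, 3212 lower). The ordinary linear model called 1519 higher and 960 lower, and 5 lower in the pathway lists. Leaving out 1 muscle gave 1125 to 3311 higher and 669 to 2160 lower over all genes, 14 to 25 higher and 5 to 13 lower in the pathway lists, and 1 to 2 lower among the 10 genes (2 without Control replicate 2, with Socs3). It moved Socs3 from -1.01 to 0.18. Eif4ebp3 was at 0.0722 with quantile normalization and at -0.85 to 0.0035 without 1 muscle. The causes of these shifts were not tested. Samples with the same replicate number did not deviate together (correlations -0.039, -0.084 and -0.112), so the numbers were not taken as pairs. With the replicate number as a block, 1840 genes were higher and 1237 lower, 4 and 1 of the 10 genes, and Stat3 was lost (adjusted p = 0.0573). Rounding of the FPKM to 2 decimals limits genes near 0.01.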

Other observations

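The Control muscles differed from each other in several inhibitors of cytokine signalling. Control replicate 2 was the lowest of the 3 for Socs3 (1.38 against 10.8 and 8.04 FPKM), Socs1 (0.96 against 8.90 and 11.4 FPKM) and Cish, a STAT5-induced inhibitor (5.65 against 23.4 and 20.9 FPKM). It was also the lowest for Stat2 (3.15 against 13.9 and 4.61 FPKM). The C26 muscles were low and close together for Socs1 and Stat2, and for Cish they measured 3.92 to 7.45 FPKM, near Control replicate 2. These genes were singled out after their values were seen, and the pattern has no test.

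Control replicate 3 was high for genes of blood cells within the pathway lists. Ptpn6, the phosphatase SHP1, measured 49.9 FPKM there against 1.36 and 0.48 FPKM in the other Control muscles and 0.22 to 0.77 FPKM in C26, and Il27ra measured 7.01 against 0.34 and 0.15 FPKM. Cd74, from the list of lymphocyte markers, was at 1143 FPKM in the same muscle. Neither Ptpn6 nor Il27ra passed the test (limma).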
